A study of Mus musculus with 3 samples.

Results

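Among small RNAs bound to Mili or Tdrd1 in mouse testis, most sequences start with U, and the sequences described here are those of Mili size that start with C or G instead. They were chosen from the deposited list by length (24 to 28 nt) and first letter (C or G), which selects 306830 of 2219118 distinct sequences, 13.8% of the list. Of these, 157219 start with C and 149611 with G. In the same length range 263317 start with A and 1165106 with T, the letter used for U in the list.

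The series holds 3 libraries of mouse testis RNA from the strain C57BL/6, 1 library per group and no replicates. The first was made from a Tdrd1 immunoprecipitate of adult testis, whose genotype the sample's own labels do not give. The second was made from a Mili immunoprecipitate of adult testis labelled wild type, and the third from a Mili immunoprecipitate of Tdrd1 knockout testis at 15 days after birth, so that age and genotype differ together. The labels name a gel cut near 28 to 30 nt and do not say how many animals gave each library. The list pools the 3 libraries and names no library, read number or strand, so that no group could be set against another, the knockout could not be checked in its own library, and sequencing depth is unknown. Each distinct sequence weighs 1 below, whether it was read once or often.

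Mili (gene Piwil2) is a Piwi protein of mouse germ cells, and its guides, the piRNAs, silence transposons and are cut from long single-stranded precursor RNAs. Piwi proteins bind a 5′ U in a dedicated pocket, and most primary piRNAs carry this base. Tdrd1 is a Tudor-domain protein that binds Mili in the germ cell granules where piRNAs are made. In the amplification or ping-pong cycle, a piRNA directs the cut of an opposite-strand RNA, and the new 5′ end lies 10 nt from its own. A guide starting with U then leaves A at position 10 of its partner, and that partner need not start with U.

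The 5′ ends that start with C or G and have most listed 3′ ends are shown first, each by its longest form of 24 to 28 nt, with the first base in capitals.
C at chr9:67589656-67589683 (mm9, plus strand): Cttgcttgtagaagactgggaccatcat
C at chr4:57374160-57374187 (mm9, minus strand): Cggacatatactggacacccagcaggag
C at chr15:74467605-74467632 (mm9, plus strand): Caggaatcctgatgaacaagtttgactc
G at chr9:67570652-67570679 (mm9, minus strand): Gacaagaactctgtgagaggcataggcc
G at chr17:39984528-39984555 (mm9, plus strand): Gtggagcctgcggcttaatttgactcaa
G at chr5:150618962-150618989 (mm9, minus strand): Gacaaaatgaaggatggcagtggaggag
Over all lengths these 5′ ends had 13, 11, 11, 12, 12 and 11 listed 3′ ends in the order shown. All 6 lie in the 100 windows of 20 kb with most listed sequences. The second C lies sense in the exons of 1700042G15Rik. The second G lies sense in Gm42418 and antisense to CT010467.1, an rRNA annotation, in a window of rRNA-like sequence. These 2 annotations lie on opposite strands, and which strand carries the rRNA was not tested. The other 4 matched no annotated exon.

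The next sequences show how members lie beside T starters with the same 3′ end, and the first base of the shorter sequence is in capitals in both. In the first 2 pairs the T starter begins 1 nt upstream of a G starter.
G starter, chr4:61882288-61882315 (mm9, minus strand): Gttagaactggcagaaagtagtctcaaa
T starter, chr4:61882288-61882316 (mm9, minus strand): tGttagaactggcagaaagtagtctcaaa
G starter, chr8:94713558-94713585 (mm9, plus strand): Ggattaggatgcggcagaactcaaagcc
T starter, chr8:94713557-94713585 (mm9, plus strand): tGgattaggatgcggcagaactcaaagcc
The T starters' 5′ ends had 15 and 14 listed 3′ ends, against 6 and 7 for the G starters' 5′ ends. In the next pair, chosen after the values were seen, the T starter begins 1 nt downstream of a C starter.
C starter, chr17:27464464-27464491 (mm9, plus strand): cTaatgtagactggtcacagcagctgac
T starter, chr17:27464465-27464491 (mm9, plus strand): Taatgtagactggtcacagcagctgac
Here the T starter's 5′ end had 12 listed 3′ ends and the C starter's 8. The first C starter shown above has such a neighbour too, at chr9:67589657-67589683, and there the C starter's 5′ end had the more 3′ ends, 13 against 7.

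The last sequences are opposite-strand pairs whose 5′ ends overlap by 10 nt, with the overlap in capitals.
C starter, chr17:27466051-27466075 (mm9, minus strand): CTGTATTGTAggtgcttccggctca
T-starting partner, chr17:27466066-27466097 (mm9, plus strand): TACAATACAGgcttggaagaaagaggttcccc
C starter, chr17:39984794-39984820 (mm9, minus strand): CCCGGACATCtaagggcatcacagacc
G-starting partner, chr17:39984811-39984840 (mm9, plus strand): GATGTCCGGGgctgcacgcgcgctacactg
In the first pair the C starter has A at position 10 because its partner starts with T. In the second, in the rRNA-like window, the partner starts with G and position 10 of the C starter is C.

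The share of C and G starters was highest at 25 nt and fell with greater length, more for G than for C. Over 24 to 28 nt, 17.7% of sequences started with C or G (95% interval 17.6 to 17.7%). All intervals cover counting error only, and overlapping sequences of 1 transcript are not independent. By length the share was 19.2% at 24 nt, 19.7% at 25 nt, 18.6% at 26 nt, 17.5% at 27 nt and 15.9% at 28 nt. Just outside the range it was 17.3% at 23 nt and 14.2% at 29 nt, and over 29 to 32 nt it was 13.5%. G starters made up 10.8% at 24 nt, 7.02% at 28 nt and 5.53% over 29 to 32 nt, and C starters made up 8.39%, 8.86% and 7.996%. The mean length was 26.5 nt for G, 26.6 nt for C, 26.5 nt for A and 26.7 nt for T starters. These differences in mean are small beside the range of lengths, but 24 or 25 nt was 2.64 percentage points more frequent in members than in T starters (16.9% against 14.3%), with that sign on 20 of 20 chromosomes (1 to 19 and X). A starters had 17.8%, above members by 0.93 points on 20 of 20 chromosomes.

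After the first base, A stood out. A was at position 2 in 47.1% of members, against 28.7% of T starters and 33.5% of A starters. The difference from T starters was 18.4 percentage points (interval 18.2 to 18.6), and ranged from 15.5 to 19.8 points over the 20 chromosomes. The most frequent first letter pairs were GA (23.6% of members) and CA (23.5%), followed by CT (13.4%), GG (10.6%), CC (9.45%), GT (7.73%), GC (6.80%) and CG (4.86%). In T starters G was the most frequent base at position 2, with 39.7%, against 15.5% in members.

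Some base pairs are frequent anywhere in these RNAs, so position 2 was also set against the bases that follow a C or G inside the same sequences (the C or G at positions 12 to 23). This comparison was chosen after values were seen. A followed C at the 5′ end in 45.9% and inside in 37.7%. A followed G in 48.4% at the 5′ end and in 36.8% inside. G was less frequent after the first base than inside, with 9.49% against 13.8% after C and 21.8% against 29.7% after G. C after G was less frequent too (13.9% against 17.5%), and C after C was close (18.4% against 18.3%). T after C was also less frequent at the 5′ end (26.2% against 30.2%), and T after G was close (15.9% against 16.0%).

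The base before the 5′ end differed between C and G starters. It could be read from an overlapping listed sequence for 86.1% of the members with an inferred strand. Before G starters it was A in 52.3%, T in 25.6%, G in 17.7% and C in 4.34%. Inside the same sequences the base before a G was A in 35.99%, T in 26.4%, G in 29.4% and C in 8.14%. A before the 5′ end was thus the base over-represented next to a G start. Before C starters it was A in 32.2%, T in 31.5%, G in 18.4% and C in 17.9%, against 31.2%, 20.8% and 30.0% for A, T and G before a C inside. There T was the base over-represented and G the one under-represented. Read from annotated transcripts instead, A stood before 51.9% of G starters and T before 31.4% of C starters.

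T before the 5′ end was about as frequent in members (28.5%) as in T starters (27.9%), and less frequent in A starters (18.8%). The difference between members and T starters was 0.57 points (interval 0.35 to 0.79) with its sign on 15 of 20 chromosomes. Without the first bases of other listed sequences the values were 26.7% in members and 26.0001% in T starters, and read from transcripts they were 28.5% and 26.3%.

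At the other end, members and A starters were less often followed by T than T starters were. T stood after the 3′ end in 23.7% of members and 25.8% of T starters, a difference of -2.08 points that had its sign on 20 of 20 chromosomes. A starters had 23.5%, and members differed from them by 0.25 points (interval -0.01 to 0.51). Inside the sequences, at positions 12 to 24, T made up 20.4% of bases in members, 20.7% in A and 22.3% in T starters. T was thus less frequent in members than in T starters there too, and the part of composition was not tested. A T 5′ end directly after the 3′ end, as phased cutting of one precursor into successive piRNAs would leave, was listed for 4.60% of the members' 3′ ends. At distances of 2 to 20 nt the mean was 4.63% (range 4.46 to 4.73%), so that distance 1 did not stand apart. The last base of members was A in 26.3%, C in 25.02%, G in 25.7% and T in 23.004%, and in T starters T was the last base in 25.3%.

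Many members had a T starter as a close neighbour on the same strand with the same 3′ end. A T starter with an identical 3′ end and a 5′ end within 5 nt was listed for 36.2% of the 254913 members with a strand (36.1 to 36.4%). The same share was 32.8% for A starters and 24.7% for T starters, and the excess of members over T starters (11.6 points) had its sign on 20 of 20 chromosomes. Such a neighbour shares more than 12 nt and can itself supply the strand. Sequences without a strand, which often lack neighbours, are left out, so these shares would be lower over all sequences. A strand was inferred for 83.1% of members and 77.1% of T starters, and the size of this effect was not tested.

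C and G starters differed in where this neighbour began. For G starters it began most often 1 nt upstream (14.0%), then 2 nt upstream (9.52%), and 1 nt downstream in 5.34%. For C starters it began 1 nt downstream in 13.4% and 1 nt upstream in 12.2%. T was at position 2 of 26.2% of C starters and 15.9% of G starters. Where T was there, it was itself a listed 5′ end for 70.3% of the C 5′ ends (69.7 to 70.8%) and 53.1% of the G 5′ ends (52.3 to 53.9%). The corresponding share was 66.9% for A and 54.2% for T 5′ ends. With T at position 3 the share was 66.1% for C and 59.8% for G. It fell with distance, to 27.3% for C and 28.4% for G with T at position 13. This profile along the member was computed after other values had been seen.

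C and G 5′ ends were less often found with several 3′ ends. The members with a strand had 192860 distinct 5′ ends, with a mean of 1.32 listed 3′ ends between 24 and 28 nt, against 1.32 for A and 1.62 for T 5′ ends. A single 3′ end was listed for 78.2% of C or G 5′ ends and 61.3% of T 5′ ends. Over all lengths, 3456 C or G 5′ ends (1.79%) had 5 or more listed 3′ ends, against 5.74% of T 5′ ends. A T 5′ end lay within 5 nt on either side of 68.7% of C or G 5′ ends, 65.4% of A and 60.2% of T 5′ ends. Because the list gives no read numbers, the level of these neighbouring sequences could not be compared.

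A at position 10 was about as frequent over all members as in T starters, but the sign of the difference was opposite inside and outside the richest windows. It was found in 31.1% of members and 31.3% of T starters, a difference of -0.17 points with an interval of -0.35 to 0.02. The sign was the same on 13 of 20 chromosomes. Inside the 100 richest windows of 20 kb, members had A at position 10 in 33.3% and T starters in 30.9%. Outside them members had 30.2% and T starters 31.3%, a difference of -1.12 points. A starters had 33.4%, and members were below them on 20 of 20 chromosomes. Positions 9 and 11 of members had A in 31.5% and 31.1%, so position 10 did not stand apart from its neighbours. G at position 10 was higher in members than in T starters, 30.4% against 28.2%. It was higher at positions 12 to 24 too, 31.2% against 29.6%.

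Members with an opposite-strand partner gave another picture, but they were few. Of the 254913 members with a strand, 731 (0.287%) had a listed partner of 24 to 32 nt whose 5′ end overlapped theirs by 10 nt. At the other overlaps from 1 to 20 nt the mean was 509 ± 86.7 members (SD over 19 overlaps), and the highest was 632, at 13 nt. The ratio at 10 nt was 1.44 (1.33 to 1.54). C starters had 429 members with a partner at 10 nt (ratio 1.40), G starters 302 (ratio 1.49), and A and T starters had ratios of 1.34 and 2.20. Overlaps of 10 nt were therefore more frequent than any other overlap tested, for C and for G, where the highest others were 405 and 264.

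The excess lay in partners that start with T, a split made after the values were seen. At 10 nt, 531 members had a T-starting partner, against a mean of 270 ± 33.7 and a highest value of 342 at the 18 other overlaps from 2 to 20 nt, a ratio of 1.97. Members with partners of another first base numbered 200, against a mean of 253 at the other overlaps (ratio 0.789). T thus started the partner of 72.6% of these members (69.3 to 75.8%), which is the same measurement as A at their position 10, while at the other overlaps the share was 51.8% on average and at most 65.9%. The ratio for T-starting partners was 1.86 for C and 2.13 for G starters. T starters gave the mirror image, with 1638 sequences having a partner of another first base, 2.98 times the mean of the other overlaps. Their ratio for T-starting partners was 1.58.

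Most of these pairs lay in the 100 richest windows, as did pairs at other overlaps. Of the 731 members with a partner at 10 nt, 518 (70.9%) lay inside them, and at the other overlaps a mean of 351 of 509 did. At 10 nt, 12.4% were sense to an mRNA, as were 11.1% of A and 15.0% of T starters with such a partner. This share was not set against other overlaps. Inside those windows the 518 members at 10 nt were 1.48 times the mean of other overlaps and above the highest of them (464). Outside, 213 did, 1.34 times the mean and below the highest other overlap (217). For T-starting partners the ratio was 1.34 outside the windows, where 152 members stood against a highest other value of 142. It was 1.87 without the richest window and 1.996 without the rRNA-like window.

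Members were over-represented in the windows that gave most sequences. The 100 richest windows of 20 kb held 28.3% of members, 26.3% of A starters and 18.6% of T starters. Members exceeded T starters on 17 of 20 chromosomes, and the difference was 0 on the other 3. Read from the side of the windows, members made up 23.3% of the 24- to 28-nt sequences inside them and 16.2% outside. Inside the sequences the composition differed in the other direction, as C and G made up 47.1% of bases at positions 12 to 24 within the windows and 47.9% outside. Among sequences matching no annotated exon, the share was 23.3% inside and 12.8% outside. More forms are listed per place inside these windows, where C or G 5′ ends had a mean of 1.66 listed 3′ ends, against 1.20 outside. The part of listing depth in this difference was not tested.

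The window with most members was chr17:27460001-27480000 (mm9), with 3416 of its 11935 sequences of 24 to 28 nt (28.6%, of which 1678 start with C and 1738 with G). It lies beside chr17:27440001-27460000 with 3094 members and chr17:27480001-27500000 with 2984, and the members change from 1.23% on the plus strand in the leftmost to 99.3% in the rightmost. Next came chr9:67560001-67580000 (2494 members), chr15:74460001-74480000 (2062) and chr6:127740001-127760000 (2042). Further windows with most members were chr14:24900001-24920000 (2010), chr2:92400001-92420000 (1936), chr2:92420001-92440000 (1892) and chr7:80940001-80960000 (1854). Across the 100 windows the percent of members ran from 13.9% to 51.1%, with a median of 22.1%.

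The highest percent belonged to chr17:39980001-40000000, the rRNA-like window, with 587 members of 1148 sequences. The lowest belonged to chr1:172120001-172140000, with 159 of 1143, and 4 of the 5 windows with the lowest percent held members that were almost all sense to an mRNA (97.5% to 100%). Among the 5 windows with the highest percent, chr8:125400001-125420000 (28.7%) also had 98.5% of members sense to an mRNA, and the others had 0%. Such windows were not counted over all 100. The percent of members rose with the share of C and G inside the sequences, with Pearson's r of 0.65 and Spearman's rho of 0.53 over the 100 windows. The windows share the same libraries, and the value is a description.

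Exons of protein-coding genes in the sense direction gave 51.3% of members, 53.4% of A and 49.95% of T starters, and 41.4% of members matched no annotated exon. Within mRNAs, members came more from coding sequence and less from 3′ untranslated regions. Among sense sequences with 1 unambiguous position, 50.8% of members were coding, 43.9% in the 3′ untranslated region and 5.28% in the 5′ untranslated region. T starters had 35.99%, 60.02% and 3.996%. The 3′ untranslated share was 16.1 points lower (interval 15.8 to 16.4) and the coding share 14.9 points higher in members, both with the same sign on 20 of 20 chromosomes. Against A starters, which had 52.9% coding, the difference was -2.02 points.

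Base composition moves with this result. C and G made up 49.5% of bases at positions 12 to 24 in coding sequence, 46.3% in 3′ and 54.4% in 5′ untranslated regions, and its part in the result was not tested. C or G was the first base of 21.7% of coding, 14.5% of 3′ untranslated and 21.5% of 5′ untranslated sequences. C starters were the more frequent in coding and 3′ untranslated sequence (11.2% against 10.5%, and 8.05% against 6.50%), and G starters in 5′ untranslated sequence (11.98% against 9.51%).

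Of 21951 annotated protein-coding genes, 12392 had at least 1 sense member, and the 10% of genes with most members held 58.5% of them. D10Wsu102e had most, with 471 members of 3477 sequences of 24 to 28 nt (13.5%), spread over a long annotated exon length of 123 kb. Ankrd11, an ankyrin-repeat chromatin regulator, had 358 (28.5%), and Trim71, a let-7 target and RNA-binding protein, 323 (21.3%). Smcr8, a partner of C9orf72, had 318 (22.6%), and Abl2, a tyrosine kinase, 304 (17.4%). Also among the genes with most members were Rbbp6 (303), Rab11fip4 (301), Eif4ebp2 (276), a repressor of translation initiation, and 1700006A11Rik (264). The count follows how many sequences a gene has, so D10Wsu102e leads in number although its percent is below the median of genes.

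The 886 protein-coding genes with 200 or more sense sequences of 24 to 28 nt had between 4.37% and 45.9% members, with a median of 15.8% and quartiles of 13.1% and 19.1%. The highest was Rpl8, a protein of the large ribosomal subunit, with 105 of 229 (95% interval 39.3 to 52.5%). Fth1, the heavy chain of ferritin, had 165 of 437 (37.8%), Cox4i1, a subunit of cytochrome c oxidase, 106 of 281 (37.7%), Hist1h1a, a linker histone, 137 of 390 (35.1%), and Snrnp35, a protein of the minor spliceosome, 74 of 212 (34.9%). These are short genes, with 0.741 to 3.47 kb of exon. The lowest were Ptpn4, a tyrosine phosphatase, with 9 of 206 (4.37%, interval 2.02 to 8.13%), Qser1 (5.85%), Sestd1 (6.90%), Bri3bp (7.08%) and Itpripl2 (7.09%), which have 6.57 to 11.3 kb of exon.

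Over these 886 genes the percent of members rose with the share of C and G at positions 12 to 24, with Pearson's r of 0.60 and Spearman's rho of 0.57, a description across genes, which are not replicates. At the extremes this share was 56.9% in Rpl8 and 39.96% in Ptpn4. C members outnumbered G members in 553 of the genes and G members outnumbered C members in 290.

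The noncoding genes with most members had more than nearly all mRNAs. Gm49794, which runs from the last of the chromosome 17 windows named above past its end, had 1709 members of 5945 (28.7%), 943 starting with C and 766 with G. Gm21269 on chromosome 7 had 1099 (23.2%), Gm10505 on chromosome 17 787 (29.8%), 1700001L05Rik on chromosome 15 623 (22.7%) and Gm10619 on chromosome 7 456 (23.2%). Per kb of exon, Gm10505 had 154 members and Ankrd11 21.6.

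Germ cell markers had members, and most somatic markers had few listed sequences of any first base. The 4 germ cell markers Ddx4, Dazl, Sycp3 and Tnp1 had 14, 28, 21 and 6 members, a median of 10.5 per kb of exon, against a median of 0.329 over all annotated protein-coding genes. Of 8 Sertoli cell markers 2 had members, Ctsl with 7 and Gata4 with 2, and Sox9, Wt1, Amh, Rhox5, Cst12 and Clu had 0. Of 6 Leydig cell markers Star, which carries cholesterol into mitochondria, had 14 and Insl3 had 1, and Cyp17a1, Hsd3b6, Cyp11a1 and Lhcgr had 0. The somatic markers without members had 0 to 7 listed sequences of 24 to 28 nt each. As a share of such sequences, members made up 14.2% in the germ cell markers (11.2 to 17.6%), 8.41% in the Sertoli markers (3.92 to 15.4%) and 25% in the Leydig markers (14.7 to 37.9%), so that the shares do not follow the counts. Ctsl gave 73 of the 107 Sertoli sequences and Star 55 of the 60 Leydig sequences. The Sertoli and Leydig shares thus rest mainly on 1 gene each.

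All 8 spermatogonial genes listed had members, 165 of 917 sequences (17.99%), a median of 6.88 per kb. For this list and those below, 12392 of all 21951 annotated protein-coding genes had a member. Any sense sequence of 24 to 28 nt was listed for 15291, so a member is usual where sequences are listed. Stra8, which is needed for entry into meiosis, had 41 members of 131, and 36 of the 41 start with G. Dazl, an RNA-binding protein, had 13.2% and Zbtb16, a factor of spermatogonial stem cells, 14.7% members. All 8 meiotic genes had members too, 148 of 845 (17.5%), a median of 5.91 per kb. In Sycp1 and Sycp3, components of the synaptonemal complex, G starters also prevailed, with 23 of 26 and 18 of 21 members. Sycp2, another component of the complex, had 9 C and 12 G, and Smc1b, a meiotic cohesin, had 14 C and 18 G. Hormad1 had 1 C and 5 G. The prevalence of G in Stra8, Sycp1 and Sycp3 was singled out after their values were seen. The members of Stra8, Sycp1 and Sycp3 with a strand had 29, 23 and 17 distinct 5′ ends.

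Of 10 haploid genes 8 had members, 57 of 224 sequences (25.4%), a median of 3.31 per kb, of which Odf2, a protein of the sperm tail, gave 31. The protamine genes Prm1 and Prm2 had 2 and 8 members, the transition protein genes Tnp1 and Tnp2 had 6 and 2, and Acrv1 and Spata18 had 0. All 15 genes of the piRNA pathway had members, 241 of 1371 (17.6%), a median of 2.99 per kb. Mov10l1, a helicase that hands precursors on, had 49, Piwil2, which encodes Mili itself, 48, and Tdrkh, a mitochondrial Tudor protein, 26. Tdrd1 had 18 of 111 sequences. In genes of the pathway with 20 or more sequences the percent ran from 9.23% in Tdrd6 to 38.6% in Pld6, the nuclease that cuts precursors (17 of 44, interval 24.4 to 54.5%). The spermatogonial, meiotic and pathway lists were thus near the 17.7% of all sequences of this length, and single genes rest on few sequences.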

How the data were processed

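The authors deposited 1 list for the series, holding each distinct sequence with its chromosome and range. Per the file headers positions are on NCBI mouse build 37, which the submitters' processing notes name mm9. No source used here names the aligner, its mismatch limit or how sequences with more than 1 position were placed. The unit is a listed sequence, and no count, level or p-value was available or computed. With 306830 members, counting error of a share near 50% is 0.177 points on either side, smaller than the effect of overlapping sequences.

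Strand was inferred from 12-nt stretches shared by overlapping sequences, for 83.1% of members, 83.0% of A and 77.1% of T starters. Sequences that overlap no other listed sequence got no strand. Results on neighbours, 3′ ends and opposite-strand partners leave them out. In 99.9% of matches to genes it was the strand the match implies. Genes come from exact full-length matches (seed of 18 nt) to GENCODE M21 transcripts (GRCm38) on the listed chromosome, never by coordinate. A sequence with several classes was split between them. Flanking bases were read from overlapping listed sequences. Windows of 20 kb were ranked by all listed sequences. The share of each class has a Clopper-Pearson interval, differences have Newcombe intervals and ratios Poisson intervals (95%). Calculations used Python 3.11.15, NumPy 2.4.6, SciPy 1.17.1 and Numba 0.67.0, and were tested on simulated data.

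The members and lists were chosen with earlier results of these data known. Named genes were the 10 protein-coding and 5 noncoding genes with most members, the 5 with the highest and the 5 with the lowest percent among protein-coding genes with 200 or more sequences, the 10 windows with most members, and the windows with the highest and lowest percent. 1 gene that this rule names is not reported here. Shown sequences were those with most listed forms, and a further pair of each kind was left out for length. The comparison with inner bases, the profile of T along members, the split of partners by first base, base reading from transcripts or without first bases, and the structural and microRNA genes were added after values had been seen. Alternatives counted each 5′ end once, left out the richest windows, kept 25 to 27 nt, or changed the windows or distances. Repeats and comparisons between libraries were not analysed here.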

Additional observations from a re-analysis of the deposited data

How the results depend on the processing

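Of 36 alternatives over 10 results, 12 lay within the 95% interval of the reported value, 24 lay outside it and 0 changed sign. Only the difference in A at position 10 is signed, as the other results are shares, a mean and ratios. Its sign was opposite inside the 100 richest windows (33.3% in members, 30.9% in T starters), a split not among the alternatives. Those intervals are narrow, so that small shifts count. No paired analysis was possible because the list names no library and no result comes from a test.

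Counting each 5′ end once gave a C or G share of 21.1%, a difference in A at position 10 of -0.46 points, a T neighbour with the same 3′ end for 32.2%, T before the 5′ end in 29.03%, 26.9% inside the richest windows and 57.8% sense to mRNAs. Outside the 100 richest windows these were 16.2%, -1.12 points, 26.96%, 28.98% and, for mRNAs, 70.0%, with T after the 3′ end in 23.1%, a mean of 1.20 listed 3′ ends and a ratio of 1.34 for T-starting partners. At 25 to 27 nt the C or G share was 18.2%, the T neighbour 36.4%, T after the 3′ end 23.3%, the mean of 3′ ends 1.24, 29.1% lay inside the windows and 50.4% in mRNAs. T neighbours within 3 nt were listed for 34.5%, and the 200 richest windows of 10 kb held 30.3%. Among alternatives added after seeing the data, T before the 5′ end was 26.7% without first bases of other sequences, and T after the 3′ end was 23.2% from transcripts. The 10-nt ratio over all partners lay between 1.34 and 1.43 in its 4 alternatives. Read numbers, and with them depth, are unknown, so rare and abundant sequences weigh the same.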

Other observations

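Members were also found sense to structural RNA genes, in small numbers. Structural RNA genes in the sense direction gave 537 members (0.175%), against 0.171% of A and 0.0593% of T starters. The difference from A starters was 0.0045 points (interval -0.017 to 0.026), and members made up 32.02% of their 24- to 28-nt sequences. CT010467.1, annotated as rRNA, had 41 members of 82, Rmrp, the RNA of the RNase MRP, 32 of 66, and Snord118, a small nucleolar RNA, 28 of 56. CT010467.1 is annotated on the minus strand of the rRNA-like window, where 89.8% of members with a strand lie on the plus strand. Whether its sense members come from rRNA was not tested. Rn7sk, a regulator of transcription elongation, had 27 of 71 and Gm24265, a small nuclear RNA gene, 25 of 63. C starters prevailed in Rmrp (23 of 32), Rn7sk (21 of 27) and Gm24265 (21 of 25), and G starters in Snord118 (20 of 28). The members of these genes with a strand had only 22, 10, 8 and 11 distinct 5′ ends in this order, so the counts rest on few starts. These genes were listed after values had been seen.

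MicroRNA genes gave 255 members in 91 genes, of which 56 had the 5′ end of 1 of 25 mature microRNAs. Most members in microRNA genes therefore did not begin at the start of any of these 25. None of the 25 is named as a form from the 3′ arm (3p), so the values say little about such forms. Mir7217 had 28 members and Mir7222 had 25, both inside piRNA-rich windows of chromosomes 17 and 2. The 3 mature microRNAs below, from RefSeq (GRCm38.p6) with bases 2 to 8 in capitals, show 5′ ends shared with 5, 5 and 4 members. Their 3 seeds differ.
mmu-miR-468-5p: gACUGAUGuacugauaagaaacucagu
mmu-miR-877-5p: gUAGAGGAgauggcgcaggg
mmu-miR-93-5p: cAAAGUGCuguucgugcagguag
The members are 24 to 28 nt long, and the last 2 mature sequences are shorter than that.

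By chromosome, members made up 13.7% of the 24- to 28-nt sequences on X and 22.002% on chromosome 17. The mitochondrial chromosome had 38 members of 197 sequences (19.3%, interval 14.0 to 25.5%).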
